A study of Mus musculus with 8 samples.

Results

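Glycolysis and the pentose phosphate pathway were examined at the RNA level in activated B cells that lack EIF4A1, the RNA helicase of the EIF4F translation initiation complex. The 36 genes described here, of 53242 in the tables, were chosen by name: the glucose transporters, the glycolytic enzymes, the enzymes and transporters of lactate, the pyruvate dehydrogenase kinases, the pentose phosphate enzymes and Hif1a. The values are from splenic B cells of C57BL/6 mice aged 8 to 12 weeks, which spent 24 h on a feeder layer (CD40LB cells, irradiated with 120 Gy, which supply CD40L and BAFF) in medium holding 40 ng/ml of IL4. The 4 control libraries came from Eif4a1+/+ Cd23-cre mice and the 4 libraries termed 4A1 KO from mice that were Eif4a1 fl/fl with Cd23-cre, so that both genotypes carried the Cre transgene and received the same culture. Cd23-cre is active from the immature B cell stage in the spleen, the floxed allele removes exons 2 to 4, and feeder cells were depleted before RNA was taken. Replicate 1 of each genotype was male and replicate 2 female in batch A, and replicate 3 was male and replicate 4 female in batch B. Tests used replicates 2 to 4, and the values of replicate 1 are given beside them. Leaving the batch A males out follows the methods of the study, which removed them for reduced viability.

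Glycolysis splits glucose into pyruvate and yields ATP and NADH, and lactate dehydrogenase returns NADH to NAD+ by reducing pyruvate to lactate. The pentose phosphate pathway branches off at glucose 6-phosphate, and its oxidative arm makes NADPH while its non-oxidative arm interconverts sugars that include the ribose of nucleotides. B cells that leave quiescence raise their glucose uptake, and MYC and HIF1A are known activators of many of these genes.

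Library totals ran from 31727557 to 43210858 counts. Values are given as CPM, counts scaled to a common library total, or, where genes are compared with each other, as TPM, which also correct for transcript length. Eif4a1 itself stood at 857 ± 98.3 CPM in control and 628 ± 67.6 CPM in 4A1 KO B cells (SD, n = 3 each; log2 fold change -0.44, SE 0.05, adjusted p = 0.000115), and all 4 KO libraries lay below all 4 control libraries. These counts cover the whole gene and do not isolate the floxed exons. The summed CPM of 6 B cell markers was 3548 to 3739 in control and 2854 to 3111 in KO libraries, and Cd79a, Cd79b and Cd22 decreased. Of 14 fibroblast markers of the feeder cells, 8 could be tested, 1 (Col3a1) decreased and 1 (Fn1) increased, Postn, Lum and Timp3 were at 0 in all libraries, and the sum was 29.6 to 51.0 CPM in control and 25.1 to 37.1 CPM in KO libraries. Sums over markers of T cells (0.456 to 1.11 CPM in control, 0.347 to 0.779 in KO, Cd3g at 0) and erythroid cells (at most 0.125 CPM) were close to 0, and that of myeloid markers was 4.12 to 8.17 CPM in control and 7.28 to 8.99 CPM in KO libraries, with S100a8 and S100a9 at 0 and Adgre1 increased. The part of these differences in the results below was not tested. In bulk RNA, fewer cells that express a gene and less of its RNA per cell cannot be told apart, and all values are relative to the rest of the RNA in a library.

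Glycolytic and pentose phosphate transcripts made up less of the RNA of 4A1 KO B cells. Summed over the 36 genes, the level was 8618, 9273, 8705 and 8797 TPM in control replicates 1 to 4 and 7006, 7400.3, 7149.8 and 7813 TPM in KO replicates 1 to 4, so the genotypes did not overlap. The mean went from 8925 ± 305 to 7455 ± 335 TPM (SD, n = 3 each), which is 0.893% of all transcripts in control and 0.745% in KO B cells. The sum over 16 glycolytic enzymes was 14.0% lower and that over 7 pentose phosphate enzymes 23.4% lower. Pkm, Aldoa and Ldha were the most abundant members, with 49.7% of the sum in control and 53.4% in KO B cells.

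Of the 36 genes, 33 could be tested in edgeR, and Hk3, Ldhb and Slc16a3 had at most 6 counts in any library. A gene was called when its adjusted p was under 0.05 and its log2 fold change beyond 0.5 in either direction. By this rule 9 members decreased (Hk1, Pfkm, Pfkfb4, Aldoc, Tpi1, Pgam1, Eno1, Pgd and Tkt), 1 increased (Slc2a3) and 23 were not called. This is 27.3% of the tested members called decreased, beside 13.7% of all 14218 genes tested, and 3.03% called increased, beside 11.6%. This rule asks for the fold threshold in the estimate only. Tested against the threshold itself (glmTreat in edgeR), 3 members were lower (Aldoc, Pfkm and Pfkfb4), beside 6.94% of all genes, and 0 were higher (1 at an unadjusted p under 0.05), beside 4.50%, so that Slc2a3 (adjusted p = 0.0502), Pgam1 (0.0819), Pgd (0.249), Tpi1 (0.286), Hk1 (0.410), Eno1 (0.527) and Tkt (0.854) were not past it. By the adjusted p alone, in which sense "fell" and "rose" are used from here on, 21 members fell (63.6%, beside 26.7% of all genes) and 5 rose (15.2%, beside 26.3%), while 7 did not pass. The median log2 fold change was -0.27 over the tested members and 0.01 over all genes tested. In CPM, all 4 KO libraries lay below all 4 controls for 17 members, beside 19.9% of all genes, and above them for 2 (Slc2a3 and Pfkp), beside 17.0%. Over replicates 2 to 4 alone, where fewer libraries have to be apart, these counts were 18, beside 25.7%, and 5, beside 25.3%. In the TPM, which the authors made with another tool, limma found 20 members lower, beside 26.6% of 12976 genes, and 5 higher, beside 24.1%, and 25 members passed in the same direction in both tests. The 5 higher in TPM became 2 with no filter on low TPM, and 2 without replicate 2 or replicate 3. Tkt lay just inside the fold threshold (log2 fold change -0.50) and Gpi1 just outside (-0.47).

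**Figure D1:**
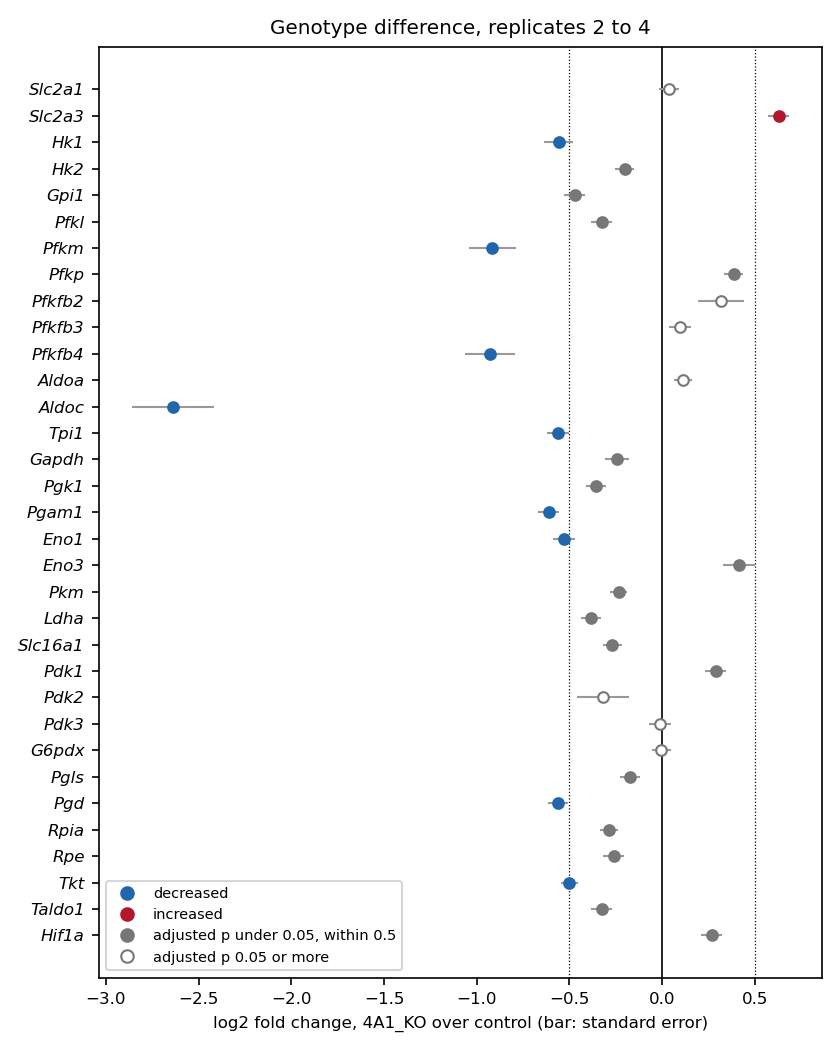
Log2 fold change of 4A1 KO over control (x axis) for each of the 33 tested genes in pathway order (y axis), from edgeR on replicates 2 to 4, with bars of 1 standard error and dotted lines at -0.5 and 0.5. The 9 decreased genes lie left of the lower line with Aldoc farthest at -2.64, and Slc2a3 at 0.63 is alone right of the upper line.

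Of the glucose transporters, Slc2a3 rose and Slc2a1 did not pass the test. Slc2a3, which encodes the high-affinity transporter GLUT3 (chr6:122704768-122778599, minus strand, GRCm39), was the single member called increased. Its level was 28.1, 24.6, 29.6 and 29.1 TPM in control replicates 1 to 4 and 39.5, 37.8, 42.2 and 43.2 TPM in 4A1 KO replicates 1 to 4. All KO libraries were above all controls, and the gene rose by 54.7% (log2 fold change 0.63, SE 0.06, adjusted p = 3.84e-05). Slc2a1, encoding GLUT1, was measured at 37.2, 37.7, 40.6 and 45.4 TPM in control replicates 1 to 4 and 45.2, 36.7, 43.8 and 45.3 TPM in 4A1 KO replicates 1 to 4. Its libraries overlapped between genotypes and it did not pass the test (log2 fold change 0.04, SE 0.05, adjusted p = 0.617). Slc2a3 took 40.2 ± 1.66% of the summed TPM of both transporters in control and 49.5 ± 1.04% in KO B cells, with no overlap over the 8 libraries.

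At the first enzymatic steps, hexokinases phosphorylate glucose and glucose-6-phosphate isomerase converts the product to fructose 6-phosphate. Hk1 was present at 30.2, 38.0, 29.4 and 32.6 TPM in control replicates 1 to 4 and 18.2, 22.3, 19.4 and 25.5 TPM in 4A1 KO replicates 1 to 4. It was lower in all KO libraries and decreased (log2 fold change -0.56, SE 0.08, adjusted p = 0.000393). Without replicate 2 it missed the fold threshold (-0.47). Hk2, the isoform induced on activation in many cells, was measured at 36.4, 38.3, 56.3 and 66.3 TPM in control replicates 1 to 4 and 33.8, 32.4, 51.8 and 54.5 TPM in 4A1 KO replicates 1 to 4. Batch B was higher than batch A in both genotypes, the genotypes overlapped, and Hk2 fell within the pairs of libraries (log2 fold change -0.20, SE 0.05, adjusted p = 0.00813). It did not pass without the replicate block (edgeR adjusted p = 0.509) or without replicate 2 (0.0565). Gpi1 fell by 27.9% and was at 418 ± 12.9 TPM in control and 300.0 ± 19.4 TPM in 4A1 KO B cells (SD, n = 3 each; log2 fold change -0.47, SE 0.06, adjusted p = 0.000165), with no overlap.

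Phosphofructokinase, which commits the sugar to glycolysis, is a tetramer of subunits encoded by Pfkl, Pfkm and Pfkp, of which Pfkl and Pfkm fell and Pfkp rose. Pfkl, the most abundant, was measured at 95.5, 103, 109.8 and 105.2 TPM in control replicates 1 to 4 and 79.2, 77.7, 83.7 and 91.5 TPM in 4A1 KO replicates 1 to 4. Pfkm was detected at 6.20, 6.95, 4.73 and 7.07 TPM in control replicates 1 to 4 and 3.10, 3.36, 2.49 and 4.12 TPM in 4A1 KO replicates 1 to 4. Both were lower in all KO libraries, with Pfkl falling by 20.2% (log2 fold change -0.33, SE 0.06, adjusted p = 0.00125) and Pfkm by 47.0% (log2 fold change -0.92, SE 0.13, adjusted p = 0.000355). Pfkp was measured at 41.7, 45.0, 44.2 and 50.3 TPM in control replicates 1 to 4 and 52.1, 53.0, 60.9 and 58.9 TPM in 4A1 KO replicates 1 to 4. It was higher in all KO libraries and rose by 30.6% (log2 fold change 0.39, SE 0.05, adjusted p = 0.000289). The share of Pfkp in the summed TPM of the 3 genes was 29.3 ± 1.57% in control and 39.7 ± 1.65% in KO B cells, and that of Pfkl was 66.8 ± 2.25% and 58.0 ± 1.15%, each without overlap over the 8 libraries.

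The PFKFB enzymes make and degrade fructose 2,6-bisphosphate, the allosteric activator of phosphofructokinase. Pfkfb4 was detected at 5.57, 4.96, 5.37 and 4.17 TPM in control replicates 1 to 4 and 4.00, 2.71, 2.53 and 2.93 TPM in 4A1 KO replicates 1 to 4. It decreased (log2 fold change -0.93, SE 0.13, adjusted p = 0.000474), with KO replicate 1 close to control replicate 4. Pfkfb3, the main member here, had 22.3 ± 1.07 TPM in control and 23.6 ± 0.945 TPM in 4A1 KO B cells and did not pass (log2 fold change 0.10, SE 0.06, adjusted p = 0.204), nor did Pfkfb2 (log2 fold change 0.32, SE 0.12, adjusted p = 0.0574), which passed with upper quartile scaling (0.34, edgeR adjusted p = 0.0444). The share of Pfkfb4 among the 3 genes was 15.4 ± 2.27% in control and 8.72 ± 0.519% in KO B cells and overlapped once replicate 1 was included.

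**Figure D2:**
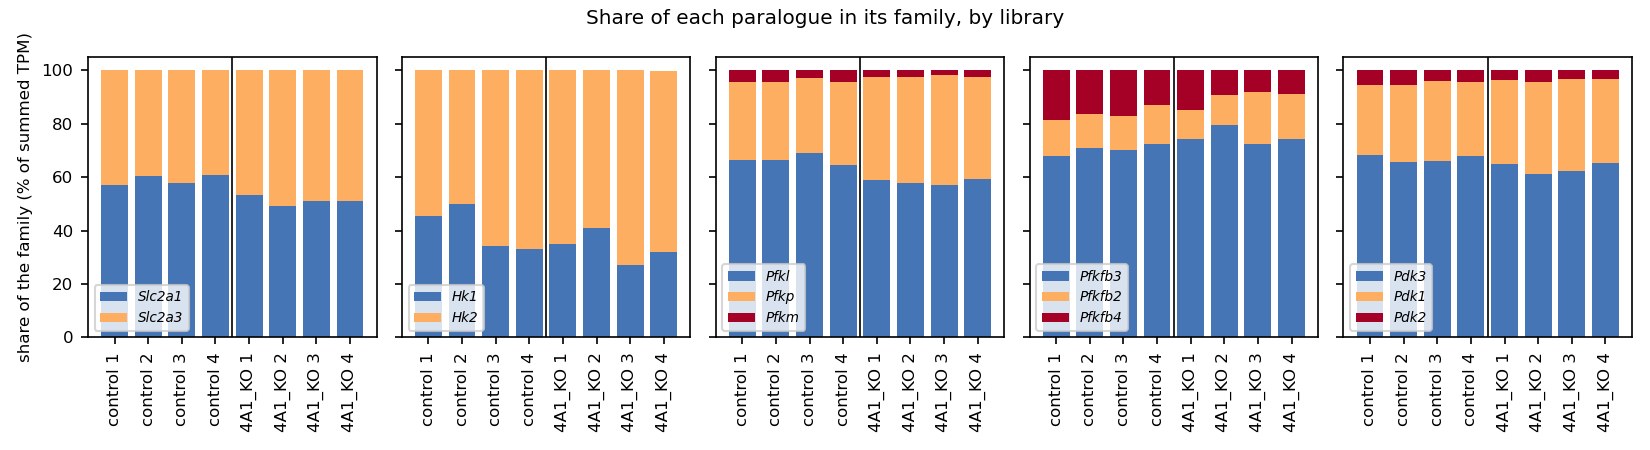
Share of each gene in the summed TPM of its family (y axis, percent) in each of the 8 libraries (x axis), for the glucose transporters, hexokinases, phosphofructokinases, PFKFB enzymes and pyruvate dehydrogenase kinases. Slc2a3 and Pfkp take a larger share in every KO library than in any control library. The shares of Hk1 and Hk2 vary between replicates and overlap between genotypes, with that of Hk1 lower in KO within every same-numbered pair.

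Aldolase, which cleaves fructose 1,6-bisphosphate, was encoded almost wholly by Aldoa. Aldoa was measured at 1666, 1579, 1517 and 1357 TPM in control replicates 1 to 4 and 1718, 1625, 1580.3 and 1566 TPM in 4A1 KO replicates 1 to 4. The genotypes overlapped and Aldoa did not pass the test (log2 fold change 0.11, SE 0.05, adjusted p = 0.0911), although it did with upper quartile scaling and over all 8 libraries (0.13 and 0.10, edgeR adjusted p = 0.0479 and 0.0490). Aldoc (chr11:78213619-78218889, plus strand, GRCm39) had the largest fold change of the 33 genes at a low level, with 6.22, 7.02, 5.23 and 4.42 TPM in control replicates 1 to 4 and 0.552, 0.893, 0.565 and 1.58 TPM in 4A1 KO replicates 1 to 4. It fell by 84.0% (log2 fold change -2.64, SE 0.22, adjusted p = 2.99e-05), and its share of aldolase TPM was 0.370% in control and 0.064% in KO B cells. Aldoc lies 8.65 Mb and Eno3 0.98 Mb from Eif4a1 on chromosome 11. The floxed allele was made in HM1 ES cells and backcrossed, and an effect of the chromosomal surroundings of that allele and one of losing Eif4a1 cannot be told apart here.

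Triose-phosphate isomerase, phosphoglycerate mutase and enolase were the abundant enzymes of lower glycolysis whose estimates lay beyond the fold threshold, though none was past it in glmTreat. Tpi1 was measured at 412, 502, 443 and 501 TPM in control replicates 1 to 4 and 257, 323, 292 and 369 TPM in 4A1 KO replicates 1 to 4. Pgam1 was measured at 168, 210.4, 190.4 and 208 TPM in control replicates 1 to 4 and 114, 129, 122 and 145 TPM in 4A1 KO replicates 1 to 4. Eno1 was measured at 422, 501, 455 and 494 TPM in control replicates 1 to 4 and 280.0, 314, 307 and 379.7 TPM in 4A1 KO replicates 1 to 4. For all 3 genes the genotypes did not overlap, and the decreases were 32.3% for Tpi1 (log2 fold change -0.56, SE 0.06, adjusted p = 9.14e-05), 34.6% for Pgam1 (log2 fold change -0.61, SE 0.06, adjusted p = 4.50e-05) and 30.8% for Eno1 (log2 fold change -0.53, SE 0.06, adjusted p = 0.000123). Without replicate 2, Eno1 missed the fold threshold (-0.47). Eno1b, a near-identical copy of Eno1, held 219 to 579 counts in a library. Eno3, the muscle enolase, rose (log2 fold change 0.41, SE 0.09, adjusted p = 0.0039) and was at 16.5 ± 1.66 TPM in control and 20.8 ± 0.667 TPM in 4A1 KO B cells, but replicate 1 was high in both genotypes and the 8 libraries overlapped.

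Gapdh, Pgk1 and Pkm, which encode the steps that form NADH and ATP, fell without reaching the fold threshold. Gapdh was measured at 492, 519, 518 and 506 TPM in control replicates 1 to 4 and 312, 418, 395 and 479 TPM in 4A1 KO replicates 1 to 4, and it fell by 15.5% (log2 fold change -0.24, SE 0.07, adjusted p = 0.0132), with KO replicate 4 nearest to the controls. Gapdh did not pass without replicate 2 or without replicate 3 (edgeR adjusted p = 0.0948 and 0.0743). Counts on 157 pseudogenes that match Gapdh amounted to 14.3% to 19.3% of its own counts, and with them added the log2 fold change was -0.25 (edgeR adjusted p = 0.0085). Pgk1, which makes the first ATP of lower glycolysis, was measured at 307, 369.7, 331 and 348 TPM in control replicates 1 to 4 and 240.4, 270.4, 255 and 293 TPM in 4A1 KO replicates 1 to 4, without overlap, and fell by 21.9% (log2 fold change -0.36, SE 0.05, adjusted p = 0.000501). Pkm, encoding pyruvate kinase, was measured at 1403, 1602, 1474 and 1523 TPM in control replicates 1 to 4 and 1222, 1286, 1271 and 1365 TPM in 4A1 KO replicates 1 to 4. It was lower in all KO libraries, by 15.0% (log2 fold change -0.24, SE 0.05, adjusted p = 0.00305), and counts on 6 matching pseudogenes, listed apart from Pkm, amounted to 4.61% to 4.79% of its own.

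**Figure D3:**
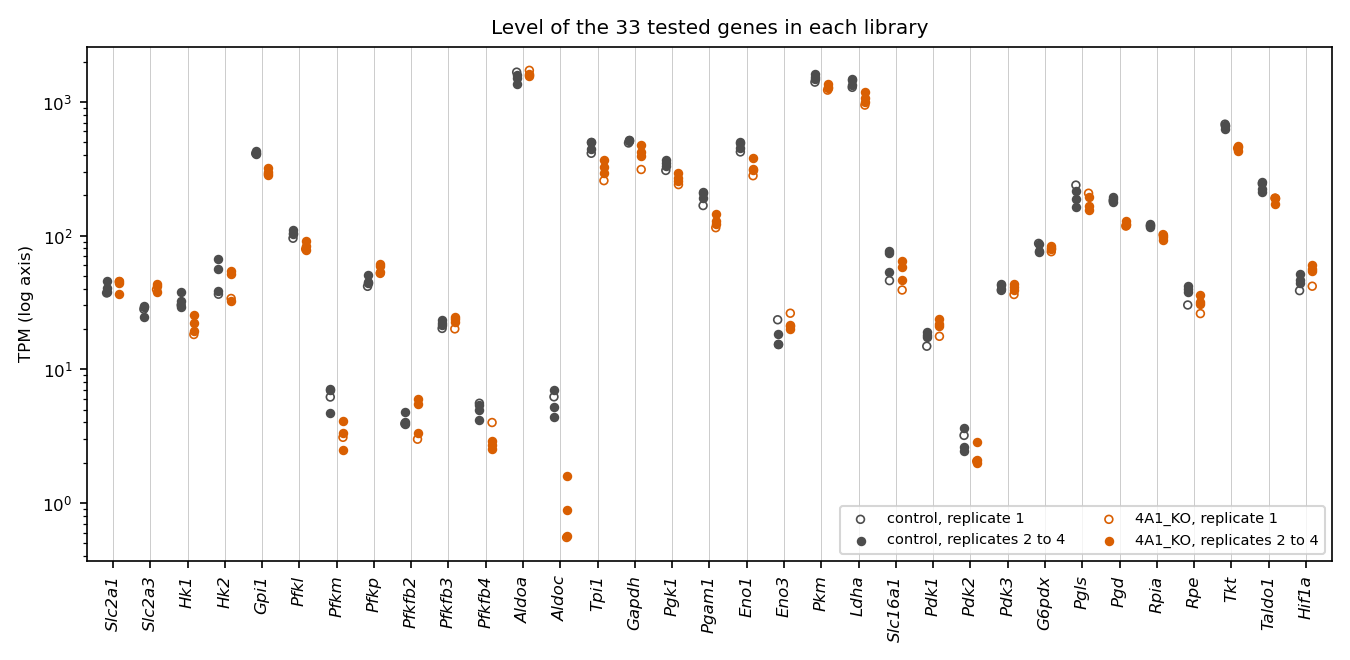
TPM on a log axis (y) of the 33 tested genes in pathway order (x) in each library, in grey for control and orange for 4A1 KO, with replicate 1 as open points. Pkm, Aldoa and Ldha lie above all other genes, and Aldoc shows the widest separation of the genotypes.

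Ldha, which encodes the lactate dehydrogenase subunit that predominates in glycolytic cells, was measured at 1282, 1469.6, 1330.4 and 1446 TPM in control replicates 1 to 4 and 944, 1071, 1004 and 1183 TPM in 4A1 KO replicates 1 to 4. All KO libraries were below all controls, and Ldha fell by 23.4% (log2 fold change -0.38, SE 0.05, adjusted p = 0.000375). Slc16a1, the lactate and pyruvate transporter MCT1, fell by 17.0% (log2 fold change -0.27, SE 0.05, adjusted p = 0.00224), although batch B was higher than batch A and the genotypes overlapped. Without the replicate block it did not pass (edgeR adjusted p = 0.183). Ldhb, the subunit of oxidative tissues, and Slc16a3, the lactate exporter MCT4, were near 0 in both genotypes, and nearly all TPM of these pairs came from Ldha and Slc16a1.

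Pyruvate dehydrogenase kinases inhibit the entry of pyruvate into mitochondrial oxidation. Pdk1 was measured at 14.9, 19.0, 18.0 and 17.4 TPM in control replicates 1 to 4 and 17.6, 23.6, 21.8 and 21.2 TPM in 4A1 KO replicates 1 to 4. It was higher in each KO library than in its same-numbered control and rose by 22.1% (log2 fold change 0.29, SE 0.06, adjusted p = 0.0023), although the genotypes overlapped over 8 libraries. Pdk3, the most abundant of the 3, had 42.1 ± 1.88 TPM in control and 41.4 ± 2.16 TPM in 4A1 KO B cells and did not pass (log2 fold change -0.01, SE 0.06, adjusted p = 0.868). Pdk2 did not pass either (log2 fold change -0.32, SE 0.14, adjusted p = 0.0868), but did over all 8 libraries (-0.39, edgeR adjusted p = 0.0189).

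In the oxidative arm of the pentose phosphate pathway, Pgd and Pgls fell and G6pdx did not pass the test. G6pdx, which encodes glucose-6-phosphate dehydrogenase, the entry enzyme, was measured at 87.3, 86.6, 74.8 and 76.9 TPM in control replicates 1 to 4 and 75.7, 83.5, 80.3 and 78.7 TPM in 4A1 KO replicates 1 to 4. The genotypes overlapped and no difference passed (log2 fold change -0.0042, SE 0.05, adjusted p = 0.95). Pgd, encoding 6-phosphogluconate dehydrogenase, the second NADPH-producing enzyme, was measured at 182, 193, 189 and 178 TPM in control replicates 1 to 4 and 118, 119.7, 122 and 129 TPM in 4A1 KO replicates 1 to 4. All KO libraries were well below all controls, and Pgd decreased by 32.3% (log2 fold change -0.56, SE 0.05, adjusted p = 5.22e-05). Pgls, the lactonase between them, fell by 11.5% with overlapping genotypes (log2 fold change -0.18, SE 0.05, adjusted p = 0.0217), and did not pass without the replicate block (edgeR adjusted p = 0.357), without replicate 2 (0.0563) or without replicate 3 (0.194).

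All 4 enzymes of the non-oxidative arm fell. Transketolase, Tkt, was the fourth most abundant member, with 680.3, 674, 658 and 629 TPM in control replicates 1 to 4 and 449, 463, 432 and 465 TPM in 4A1 KO replicates 1 to 4. The genotypes were far apart, and Tkt decreased by 29.3% (log2 fold change -0.50, SE 0.05, adjusted p = 5.39e-05). Its log2 fold change was -0.48 with upper quartile scaling, -0.495 with shrinkage in DESeq2, -0.499 among genes with at least 1 CPM in 3 libraries, -0.48 without replicate 2 and -0.47 without replicate 3, each short of the fold threshold. Taldo1, encoding transaldolase, fell by 20.2% (log2 fold change -0.33, SE 0.06, adjusted p = 0.00121) and Rpia, encoding ribose-5-phosphate isomerase, by 18.1% (log2 fold change -0.29, SE 0.05, adjusted p = 0.00108), both without overlap. Rpe, the epimerase, fell by 16.6% (log2 fold change -0.26, SE 0.06, adjusted p = 0.00508) and overlapped when replicate 1 was included.

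Hif1a, encoding the oxygen-regulated subunit of HIF1, was measured at 38.7, 44.3, 46.4 and 51.3 TPM in control replicates 1 to 4 and 41.8, 54.8, 59.7 and 56.4 TPM in 4A1 KO replicates 1 to 4. It rose by 20.3% (log2 fold change 0.27, SE 0.05, adjusted p = 0.00323), with overlap only through replicate 1. HIF1A is regulated chiefly through the stability of its protein, which these data do not measure.

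Within same-numbered pairs of libraries most members were lower in KO. Pairs 2 to 4 are the libraries of the main test, so their counts repeat its result and only pair 1 adds libraries. In pair 1, 25 of 33 members were lower in KO, with a median log2 CPM ratio of -0.26, and the counts were 25 in pair 2 (median -0.31), 24 in pair 3 (-0.34) and 22 in pair 4 (-0.20). Of the 21 members that fell, KO replicate 4 was the highest of KO replicates 2 to 4 for 17. Neither this count nor those within pairs was made over all genes, so whether the members differ from other genes here was not tested. The genotype effect was also compared between sexes and between batches over the 8 libraries in edgeR. No member passed the adjusted threshold in either of these interaction tests. Of all 14211 genes tested, 1 passed between batches and 0 between sexes. With so few genes passing, the result does not show that the effect on the members was equal. In each of the tests, 1 member lay below 0.05 before adjustment, Hk1 between batches (adjusted p = 0.999 in edgeR) and Aldoc between sexes.

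**Figure D4:**
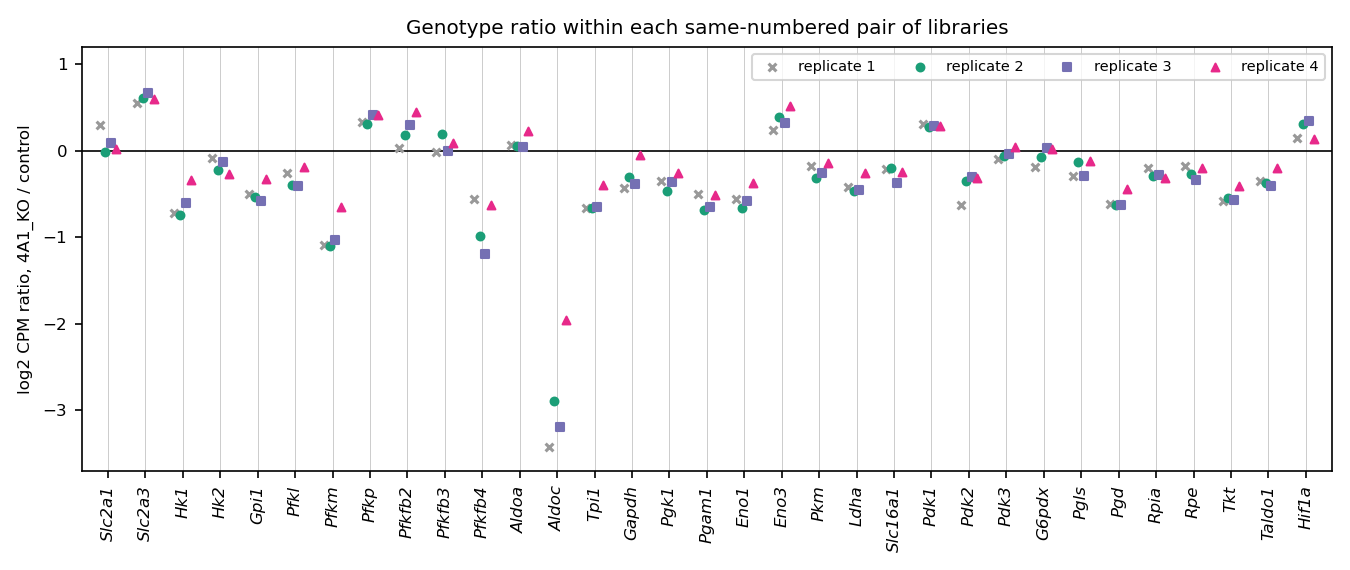
Log2 ratio of CPM, 4A1 KO over control, within each same-numbered pair of libraries (y axis) for the 33 tested genes in pathway order (x axis), with 1 symbol per replicate. Most points lie below 0, and those of replicate 4 are often nearest to 0.

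Other genes of the same pathways were taken from lists of textbook members, and their counts stand beside the shares of all genes tested, of which 26.7% fell, 26.3% rose, 13.7% were called decreased and 11.6% increased. Of 34 further glycolytic genes 19 could be tested, of which 10 fell (52.6%) and 3 rose (15.8%). The 3 called decreased (Slc2a9, Slc16a7 and Pgm1) were 15.8% of the 19 tested, near the share of all genes, and 1 was called increased (Eno2). Pgm1, encoding phosphoglucomutase, had 30.3 ± 3.5 TPM in control and 16.2 ± 3.7 TPM in KO B cells (log2 fold change -0.91, SE 0.10, adjusted p = 0.000123), whereas Adpgk, the ADP-dependent glucokinase, rose (log2 fold change 0.48, adjusted p = 0.000135) and so did G6pc3, a glucose-6-phosphatase (0.41, adjusted p = 0.000688). Of 11 further pentose phosphate genes 9 could be tested, of which 4 fell (44.4%) and 1 rose (11.1%), and H6pd and Prps2 were called decreased. Prps2, which makes phosphoribosyl pyrophosphate from ribose 5-phosphate, had a log2 fold change of -0.56 (adjusted p = 6.29e-05), H6pd, the dehydrogenase of the endoplasmic reticulum, -0.99 (adjusted p = 0.000386) and Dera -0.40 (adjusted p = 0.000893). Of 12 genes of pyruvate entry into mitochondria 11 could be tested, of which 3 fell (27.3%), about the share of all genes, and 1 rose (9.09%). Pdp2, the phosphatase that reactivates pyruvate dehydrogenase, and Pcx, pyruvate carboxylase, decreased (log2 fold changes -0.85 and -1.01, adjusted p = 0.00011 and 0.000137), and Pdhx fell (-0.30, adjusted p = 0.00816).

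A further list joined HIF1 subunits and regulators of HIF1A with Myc and the MLX network of glucose-sensing factors and their targets, and another held targets of HIF1A outside glycolysis. Of the 14 genes of the first list 11 could be tested, of which 7 rose (63.6%, beside 26.3% of all genes) and 1, Mlx, fell (9.09%, beside 26.7%). The list holds both activators and inhibitors, so these shares have no single regulatory direction. Myc did not pass (log2 fold change -0.01, edgeR adjusted p = 0.939), at 416 ± 153 TPM in control and 396 ± 54.5 TPM in KO B cells. Hif1an, the asparaginyl hydroxylase that inhibits HIF1A, increased (log2 fold change 0.56, SE 0.06, adjusted p = 6.34e-05), as did Mlxip, a glucose-sensing transcription factor (0.61, adjusted p = 6.97e-05), and Txnip, which restrains glucose uptake (0.54, adjusted p = 0.000198). Of 19 HIF1A targets outside glycolysis 17 could be tested, of which 5 fell and 5 rose (29.4% each way), close to the shares of all genes. Of these, 3 were called increased and 3 decreased. Adm, encoding adrenomedullin, and Gbe1, the glycogen branching enzyme, increased (0.87 and 0.62, adjusted p = 2.12e-05 and 0.000138), as did Kdm3a, a histone demethylase (0.51, adjusted p = 0.00165). Bnip3, a mitophagy receptor, decreased (-0.73, adjusted p = 0.000325), as did Ddit4, an inhibitor of mTORC1 (-0.78, adjusted p = 0.000963), and Gys1, glycogen synthase (-0.72, adjusted p = 0.000539).

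Promoters were examined because many members moved together and because HIF1 and MYC bind short motifs there. RefSeq windows of 250 bases before the start (GRCm38.p6) were found for 35 of the 36 genes. They were searched on both strands for CACGTG, the E-box of MYC, and for ACGTG outside it, a core of the HIF1 response element. CACGTG itself contains ACGTG, so these searches do not separate sites of MYC from sites of HIF1. CACGTG occurred in 7 members (20.0%, beside 6.86% of 27025 genes with a window) and ACGTG outside it in 14 (40.0%, beside 12.8%). Members had more windows per gene (1.49, beside 1.22 over all genes), which raises these shares, and of single windows 13.5% held CACGTG, beside 6.02%, and 28.8% held ACGTG outside it, beside 11.4%. Both motifs contain a CG dinucleotide, and base composition was not matched in these shares. By direction, ACGTG outside CACGTG was found in 6 of the 21 members that fell, 5 of the 7 that did not pass and 1 of the 4 with a window that rose. The stretches around the motifs are shown for Ldha and Pgk1, which fell, Slc2a1, which did not pass, and Hif1a, which rose, with the motifs in capitals and CACGT marking an ACGTG on the other strand. All 4 lie on the plus strand, at chr7:46845639-46845795, chrX:106186930-106186994, chr4:119108689-119108734 and chr12:73907712-73907822 respectively.
Ldha: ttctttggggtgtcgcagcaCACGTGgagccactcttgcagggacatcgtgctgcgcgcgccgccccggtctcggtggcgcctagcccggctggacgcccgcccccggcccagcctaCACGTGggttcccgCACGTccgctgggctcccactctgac
Pgk1: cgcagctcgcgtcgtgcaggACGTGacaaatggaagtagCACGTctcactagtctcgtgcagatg
Slc2a1: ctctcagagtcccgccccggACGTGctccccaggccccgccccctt
Hif1a: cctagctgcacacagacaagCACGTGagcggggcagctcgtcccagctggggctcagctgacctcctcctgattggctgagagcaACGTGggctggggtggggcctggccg
Ldha carried 2 CACGTG and 1 further ACGTG, Pgk1 2 ACGTG, Slc2a1 1 ACGTG and Hif1a 1 of each. A match of these letters does not show that a factor binds there.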

How the data were processed

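RNA was sequenced from purified B cells as paired-end, strand-specific libraries. The authors trimmed reads with Trim Galore 0.6.6, mapped them to GRCm39 with HISAT2 2.1.0 and deposited raw counts per gene, made with Seqmonk over merged isoforms, and TPM, made with StringTie 2.1.1. Counts of replicates 2 to 4 (6 libraries) were filtered with filterByExpr (minimum count 10), normalized by TMM and fitted in edgeR 4.0.16 (quasi-likelihood) with batch, sex and genotype, with Benjamini-Hochberg adjustment over 14218 genes. TPM were tested in limma 3.58.1 as log2(TPM + 1) where the mean reached 1 TPM. Fold changes on that scale are understated for low genes. Within these 6 libraries batch and sex equal the replicate number as a block. Deviations of same-numbered libraries correlated at a mean of 0.51, with each of the 3 pairs above 0.1. Other pairs were at a mean of -0.25, which largely follows from centring each gene within a genotype over 3 libraries. Libraries came from separate mice. Named genes were the 36 members, Eif4a1 and the 3 genes with the smallest adjusted p in each further list, and other genes named from those lists and from the marker lists were chosen after their values were seen. Members and lists were chosen with earlier results of these data known. Both tests were tested on simulated data. Pseudogenes were matched to members by BLAST against GENCODE M39 transcripts at 90% identity over at least 50% of their length. Protein sequences were not analysed here. Values of some single marker genes are not reported here. Alternatives included DESeq2 1.42.0, other scalings and filters, all 8 libraries, no block and leaving out each replicate.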

Additional observations from a re-analysis of the deposited data

Results flagged for a closer look

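In groups of 4 libraries, a library was marked when its gap to the nearest other library exceeded Dixon's critical share of the group's range in CPM at the 95% level. This held for 5 of 71 groups, where chance gives 3.55. For Pkm, control replicate 2 was high at 1901 CPM, beside 1710 to 1727 CPM in the others (gap over range 0.912). Rpia in control replicate 4 was low at 109.7 CPM, beside 118 to 119 CPM (0.893). Eno3 was high in replicate 1 of both genotypes, at 16.9 CPM in control beside 10.97 to 11.9 CPM (0.844) and at 20.0 CPM in 4A1 KO beside 14.9 to 15.7 CPM (0.842). That replicate is not in the tests. For Hk3, control replicate 1 was at 0 and the other controls at 0.0231 to 0.0247 CPM, the value of 1 count (0.937).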

How the results depend on the processing

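The fit without the replicate block called 9 members decreased and 1 increased, as with it, and 18 fell and 5 rose by the adjusted p; Hk2, Slc16a1 and Pgls no longer passed (edgeR adjusted p = 0.509, 0.183 and 0.357). A test against the fold threshold itself (glmTreat in edgeR) left 3 members decreased (Aldoc, Pfkm and Pfkfb4) and 0 increased, with 5 and 1 at an unadjusted p under 0.05, and DESeq2 called 9 decreased and 1 increased, or 8 and 1 with shrinkage. With no filter on low TPM, limma found 2 members higher. Over all 8 libraries, 17 members were lower and 2 higher without overlap, against 18 and 5 in the 6 libraries. Leaving out each replicate in turn gave 6 to 10 members decreased (6 without replicate 2, where Hk1, Eno1 and Tkt missed the fold threshold, and 10 without replicate 4, with Gpi1 added), 1 increased, and 2 to 4 higher in TPM (2 without replicate 2 or replicate 3, 4 without replicate 4), and Gapdh did not pass without replicate 2 or replicate 3 (edgeR adjusted p = 0.0948 and 0.0743), nor Pgls (0.0563 and 0.194), nor Hk2 without replicate 2 (0.0565). Upper quartile scaling and a minimum of 1 CPM in 3 libraries also gave 8 decreased, without Tkt. The counts over all genes moved as well. Those called decreased were 1949 of 14218 in the main fit and 1658 of 14218 without the block. They were 1690 of 14352 without replicate 2 and 2093 of 14337 without replicate 4. Upper quartile scaling gave 1848 of 14218, the filter at 1 CPM 1705 of 11878, and DESeq2 1646 of 14763, or 1498 with shrinkage. Aldoa and Pfkfb2 passed the adjusted p, though not the fold threshold, with upper quartile scaling (7 members rose), as did Aldoa and Pdk2 over all 8 libraries. Directions turned for Pdk3, G6pdx, Slc2a1 and Pfkfb2, none of which passed in the main test or in the settings where they turned. With upper quartile scaling the log2 fold change of Pdk3 was 0.0097 and that of G6pdx 0.0186. Leaving out each replicate gave -0.0460 to 0.0115 for Pdk3 and -0.0201 to 0.0319 for G6pdx. In TPM, G6pdx was at -0.0306 over 8 libraries, and leaving out each replicate gave -0.0101 to 0.0670 for G6pdx, -0.0473 to 0.0042 for Pdk3, -0.0196 to 0.0526 for Slc2a1 and -0.0030 to 0.319 for Pfkfb2. The cause was not tested. Scalings moved the median of all genes by at most 0.0228 (log2).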
